A study of Homo sapiens with 2 samples.

Results

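To explore where IGF2BP3 binding was recorded on copies of mRNAs, the LACE-seq peaks that lay on processed pseudogenes of the hg38 genome were examined. IGF2BP3 is an RNA-binding protein that reads N6-methyladenosine (m6A) on mRNA. The cells were OE-19, an established cancer line that the labels trace to adenocarcinoma of the esophagogastric junction, with no treatment or genotype named. They were crosslinked with 264 nm UV at 400 mJ, IGF2BP3 was immunoprecipitated, and its RNA was sequenced and turned into 1 peak list for each of 2 replicates of 1 group. No control library was analysed here. The study calls its replicates biological, and how the cultures were kept apart is not described in the labels.

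A peak was counted as a pseudogene peak when it overlapped, by at least 1 bp, a GENCODE 44 gene of the type processed pseudogene or transcribed processed pseudogene and touched no exon of a protein-coding gene. This held for 1194 of 21096 peaks on annotated chromosomes in replicate 1 (5.66%, 95% interval by the Wilson method 5.36 to 5.98) and for 923 of 20763 in replicate 2 (4.45%). The complete lists held 21142 and 20799 peaks, and both together 2117 pseudogene peaks. A further 66 and 60 peaks lay on a processed pseudogene but also on a protein-coding exon and were not counted. All intervals given here reflect counting error alone.

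A processed pseudogene typically arises when a spliced mRNA is reverse transcribed and the copy is inserted elsewhere in the genome. It therefore usually lacks introns and a promoter of its own, and carries the exons of its parent gene fused end to end. Abundant housekeeping mRNAs, above all those of ribosomal proteins, have left many such copies. Because copy and parent are so alike, a short read can match both, and a peak on the copy can hold reads of either. Which of them the crosslinked RNA came from cannot be told apart from a peak list.

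The sequences below show how alike they are at the summit, the position in a peak where the peak caller recorded the most reads. Each is the 30 nt around the replicate 1 summit on the hg38 strand of the pseudogene, beside the same stretch of the parent mRNA, read 5′ to 3′, with bases that differ in capitals. The first set are strong sites in both replicates whose 31-mer at the summit occurred only once in the genome.
COX6A1P2, chr6:37044970-37044999, plus strand: gtggaagacCctcaccttcttcgtcgcgct
COX6A1 mRNA: gtggaagacTctcaccttcttcgtcgcgct
ENSG00000218175, chr2:176201215-176201244, minus strand: CgtctccAagctcgcctgcatctactcggc
RPLP1 mRNA: TgtctccGagctcgcctgcatctactcggc
ENSG00000242814, chr5:124809088-124809117, minus strand: gctaAaaAggGctgattcaccgcaagactg
RPL28 mRNA: gctaCaaCggActgattcaccgcaagactg

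Counted from the 5′ end of the window with the parent base first, the substitutions were T10C in COX6A1P2, T1C and G8A in ENSG00000218175, and C5A, C8A and A11G in ENSG00000242814. COX6A1 encodes a subunit of cytochrome c oxidase, and RPLP1 and RPL28 encode proteins of the large ribosomal subunit. The second set are strong sites at which no base of the window differed from the parent, so that 1 line stands for both.
RPL41P5 and RPL41 mRNA, chr12:93083634-93083663, minus strand: tggaggaagaagcgaatgcgcaggctgaag
RPS27P8 and RPS27 mRNA, chr1:202471991-202472020, minus strand: tggatgtgaaatgcccaggatgctataaaa
RPL13AP25 and RPL13A mRNA, chr13:54440969-54440998, minus strand: cggcatcccaccgccctacgacaagaaaaa
PTMAP5 and PTMA mRNA, chr13:81690117-81690146, plus strand: taaaggagaagaaggaagttgtggaagagg
MTND4LP1 and MT-ND4L mRNA, chrX:126472737-126472766, plus strand: ccctcaacacccactccctcttagccaata

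In 3 of these windows an exon junction of the parent fell inside the stretch, after base 23 in RPL41, base 18 in RPS27 and base 25 in RPL13A. There the run of bases is unbroken in the pseudogene and is interrupted by an intron in the parent gene. The replicate 1 summit 31-mer was found 8 times in the genome for RPL41P5 and for RPS27P8, 5 times for PTMAP5, and 3 times for RPL13AP25 and for MTND4LP1. At the replicate 2 summit it was found 8, 11, 2, 3 and 1 times for RPL41P5, RPS27P8, PTMAP5, RPL13AP25 and MTND4LP1. Beyond its window, the replicate 1 peak on MTND4LP1 was 93.8% identical to MT-ND4L over 161 aligned bases.

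The peaks were spread over 1092 pseudogenes in replicate 1 and 846 in replicate 2. These were 10.2% and 7.94% of the 10658 annotated processed pseudogenes, of which 512 are of the transcribed type. In all, 1229 pseudogenes had a peak in either list and 709 in both, which is 64.9% of the replicate 1 set and 83.8% of the replicate 2 set. Peaks on the transcribed type numbered 81 and 71. A parent could be read from the gene name for 877 peaks (73.5%) in replicate 1 and 680 (73.7%) in replicate 2, giving 427 and 343 distinct parents, 306 of them in both lists. Of these peaks, 613 and 461 shared their parent with another pseudogene peak of the list, so they were not independent sequences.

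Most pseudogene peaks were centred on the pseudogene itself. The summit was inside the annotated copy in 971 peaks of replicate 1 (81.3%) and 729 of replicate 2 (79.0%), and the whole peak was inside it in 539 and 434. The median exonic length of the pseudogenes was 742 and 765 bp, and the median width of the peaks 352.5 and 322 bp. No pseudogene peak, lncRNA exon peak or other peak was narrower than 293 bp in replicate 1 or 294 bp in replicate 2. A summit is therefore not a crosslink position to the nucleotide. About 1 pseudogene peak in 3 lay within the span, and so in an intron, of a protein-coding gene, at 387 peaks (32.4%) and 298 peaks (32.3%). In 142 and 125 of these the host gene ran on the same strand as the pseudogene. The deposited peaks have no strand, so reads from a host intron and from the pseudogene cannot be told apart. An exon of a long non-coding RNA (lncRNA) was also touched by 51 and 45 peaks.

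Fold enrichment, the ratio of reads at the summit to the local background given by the authors' peak caller, was high on processed pseudogenes. Its median was 8.23 in replicate 1 (range 2.92 to 25.2) and 8.16 in replicate 2 (range 2.73 to 24.8). The medians were 6.81 and 7.08 for all other peaks, and 6.39 and 6.92 for 415 and 438 peaks on lncRNA exons, the class most like this one among untranslated RNAs. In replicate 1, 552 pseudogene peaks (46.2%) were in the top quartile of fold enrichment of their list, against 23.7% of the other peaks (two-sided Fisher's exact test, adjusted p = 3.97e-59) and 19.8% of lncRNA exon peaks (adjusted p = 3.54e-22). In replicate 2 the same exact test set 377 (40.8%) against 24.3% (adjusted p = 1.67e-26) and 21.5% (adjusted p = 1.63e-12). The share over each whole list was 25.0%. The difference held in both replicates and against both comparison sets. P-values of these comparisons were adjusted over 12 such tests. They count peaks as independent, although many share a parent, and so speak of these libraries only.

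The number of reads at the summits went the other way. The pileup, the count of reads stacked at the summit, had a median of 17 reads (range 4 to 249) on pseudogenes in replicate 1 and 16 (range 5 to 195) in replicate 2, against 23 and 22 for the other peaks and 22 and 21 for lncRNA exon peaks. The top quartile of pileup held 185 pseudogene peaks (15.5%) in replicate 1, against 26.0% of the other peaks (two-sided Fisher's exact test, adjusted p = 4.31e-17) and 26.3% of lncRNA exon peaks (adjusted p = 2.53e-06). In replicate 2 the same exact test set 119 (12.9%) against 25.1% (adjusted p = 6.85e-19) and 26.0% (adjusted p = 7.26e-09). With ties, that quartile held 25.4% and 24.6% of the whole lists. When only other peaks off protein-coding exons were used for the comparison, the mean difference shrank from -11.4 to -0.182 percentage points and was no longer called (Fisher's exact test, larger adjusted p = 0.727). The lower pileup thus held against lncRNA exon peaks and all other peaks, but not against the peaks off protein-coding exons taken as a whole.

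As a ratio of medians, though not in reads, the local background was where pseudogene peaks differed by the most. It had a median of 0.938 reads in replicate 1 and 0.853 in replicate 2 on pseudogenes, compared with 2.17 and 1.85 for the other peaks and 2.31 and 1.96 on lncRNA exons. Fold enrichment is the pileup plus 1 over the background plus 1, so a modest stack of reads over a low background gave a high ratio. The background may include reads of the peak itself, so it is not a measure apart from the pileup. The background was not tested on its own.

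**Figure D1:**
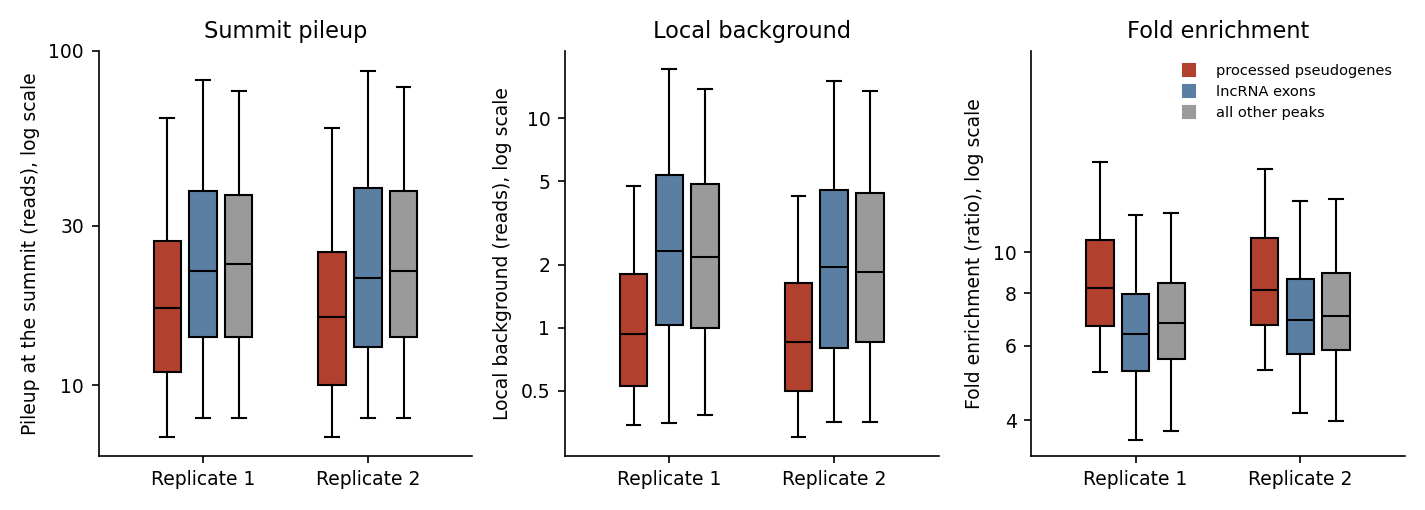
Pileup at the summit in reads, local background in reads and fold enrichment as a ratio, each on a log scale, for peaks on processed pseudogenes, on lncRNA exons and all other peaks in both replicates; lines are medians, boxes quartiles and whiskers the 5th and 95th percentiles. Pseudogene peaks had the lowest median pileup (17 and 16 reads) and background (0.938 and 0.853 reads) and the highest median fold (8.23 and 8.16).

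The share of peaks that recurred differed between the replicates. In replicate 1, 718 of 1194 pseudogene peaks overlapped a peak of replicate 2, which is 60.1% (interval 57.3 to 62.9) and equal to the 60.1% of the whole list. In replicate 2, 731 of 923 overlapped a peak of replicate 1, at 79.2% (interval 76.5 to 81.7) beside 61.2% of the whole list. Both shares rest on much the same overlaps, 711 pairs of pseudogene peaks, over different numbers of pseudogene peaks. They are therefore not independent results, and the higher share belongs to the list with fewer pseudogene peaks. Against the other peaks the difference was 0.0496 percentage points in replicate 1 (two-sided Fisher's exact test, adjusted p = 1) and 18.8 points in replicate 2 (adjusted p = 4.96e-32). Against lncRNA exon peaks the same exact test gave 1.82 points (adjusted p = 0.571) and 25.3 points (adjusted p = 1.21e-20). Because it did not pass in both lists, no difference in recurrence was called. Against other peaks off protein-coding exons it was called, with a mean difference of 21.5 points (Fisher's exact test, larger adjusted p = 7.82e-15).

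**Figure D2:**
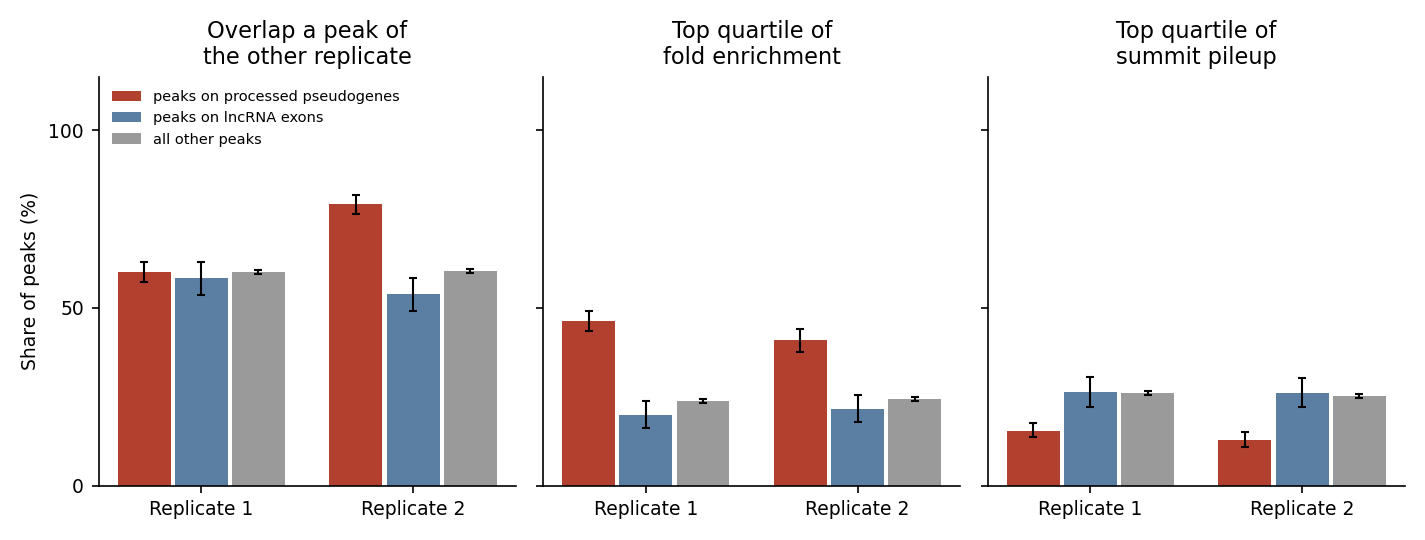
Share of peaks, in percent with 95% Wilson intervals, that overlapped a peak of the other replicate, were in the top quartile of fold enrichment, or were in the top quartile of pileup. Pseudogene peaks stood above both comparison sets for fold (46.2% and 40.8%) and below both for pileup (15.5% and 12.9%) in each replicate, while overlap was higher in replicate 2 alone (79.2%).

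Peaks seen in a single list had lower median values. The 476 pseudogene peaks found only in replicate 1 had a median pileup of 12 reads and a median fold of 6.88, compared with 22 reads and 9.76 for the 718 that recurred. The 192 found only in replicate 2 had 11 reads and 6.63, compared with 18 reads and 8.99. Among 711 pairs of overlapping pseudogene peaks, summits were a median of 24 bp apart, and the fold enrichment of 609 pairs (85.7%) agreed within 1.5-fold. As a description over these 711 pairs, many of which share a parent, the rank correlation between replicates was 0.668 for fold enrichment and 0.775 for pileup (Spearman's rho).

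**Figure D3:**
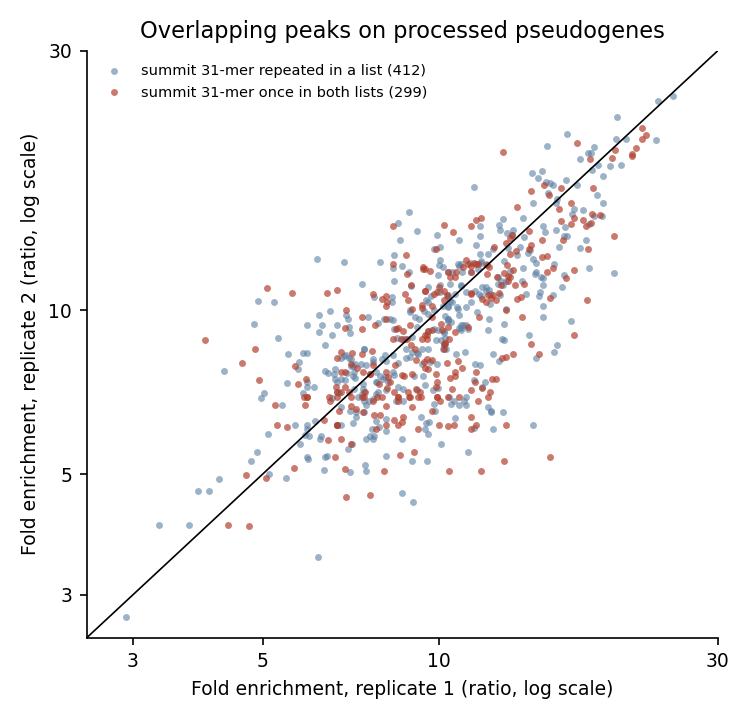
Fold enrichment in replicate 1 (x axis) and replicate 2 (y axis), both ratios on log scales, for 711 pairs of overlapping pseudogene peaks, with the line of equal values. Red points are the 299 pairs whose summit 31-mer occurred once in the genome in both lists, and they lie among the others except at the very top, where RPL41P5 (25.2 and 24.8) and RPS27P8 (23.7 and 24.2) have repeated 31-mers.

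The 10 strongest sites, 1 per parent, were those with the highest fold enrichment in both lists, and their values are given as a description because fold enrichment chose them. RPL41P5, on chromosome 12 at 93083598 to 93083675, had a fold of 25.2 in replicate 1 and 24.8 in replicate 2, with pileups of 157 and 125 reads. The peak in replicate 1 was 567 bp wide and thus far longer than the 78 bp annotated as the pseudogene, and it aligned to the RPL41 mRNA over 329 bases at 99.4% identity. No peak of replicate 1 lay over these bases of RPL41 itself, the gene of a small ribosomal protein. RPS27P8, in an intron of a protein-coding gene on chromosome 1, had folds of 23.7 and 24.2 with 79 and 83 reads. The RPS27 gene, which encodes a protein of the small ribosomal subunit, had a peak over the same bases in replicate 1 with a fold of 7.95 and 20 reads.

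COX6A1P2 had folds of 22.3 and 21.6 with 78 and 72 reads, and the peak on COX6A1 over the same bases had a fold of 8.13 and 20 reads in replicate 1. PTMAP5 is a transcribed copy of PTMA, the gene of the acidic nuclear protein prothymosin alpha. Its folds were 23.6 and 20.6 with 93 and 54 reads, beside 8.61 and 48 reads on PTMA in replicate 1. RPL13AP25 had folds of 20.9 and 20.6 with 92 and 110 reads, and its replicate 1 peak ran over 7 former exon junctions of RPL13A. The peak on RPL13A over the same bases had a fold of 6.93 and 61 reads. At RPS27P8, COX6A1P2, PTMAP5 and RPL13AP25, fold and pileup on the pseudogene were above those of the parent in replicate 1.

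FTH1P7 is a copy of FTH1, which encodes the heavy chain of the iron store ferritin. It had folds of 20.2 and 22.7 with 63 and 81 reads, fewer than the 143 reads on FTH1 at the same bases in replicate 1. Its summit lay outside the annotated copy, in sequence that matched the 5′ UTR of FTH1. MTCO2P2 and MTND4LP1 are nuclear copies of the mitochondrial genes MT-CO2 and MT-ND4L, which encode parts of cytochrome c oxidase and of complex I. Both genes have 1 exon. Such sites were grouped as copies of the mitochondrial genome, so the account of spliced mRNAs given above does not cover them. MTCO2P2 had folds of 22.6 and 21.0 with 80 and 57 reads, while the peak on MT-CO2 had 298 reads but a fold of 1.83 in replicate 1. Its summit lay outside both the annotated copy and the 161 aligned bases, and the peak lay within the span of a protein-coding gene, so the reads at that summit were not matched to MT-CO2. MTND4LP1 had folds of 20.1 and 20.7 with 99 and 72 reads.

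ENSG00000218175, a copy of RPLP1 without a symbol, had folds of 22.2 and 20.7 with 72 and 58 reads. ECM1P2 had folds of 21.8 and 19.8 with 61 and 48 reads, its peak lay wholly inside the pseudogene, and the peak sequence did not align to the mRNA of ECM1, the parent its name gives. Its summit 31-mer occurred once in the genome, as did those of COX6A1P2, MTCO2P2, ENSG00000218175 and ENSG00000242814 in both lists. The last of these, which matches RPL28 at 93.9% identity, had folds of 20.0 and 19.7 with 56 and 50 reads. Thus 4 of the 10 strongest sites, and the next single-copy site in order, were not tied to another place in the genome by an exact 31-mer.

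After PTMAP5, the highest folds on transcribed pseudogenes were at RPS27AP16, a copy of the ubiquitin and ribosomal protein fusion gene RPS27A, with folds of 17.5 and 19.0 and 61 reads in both lists. RPL12P38 had folds of 12.9 and 14.7 with 24 and 28 reads. FTH1P10 had folds of 14.4 and 13.2 with 45 and 35 reads, and LDHAP4, a copy of the lactate dehydrogenase A gene, had 13.8 and 13.1 with 52 and 44 reads. The transcribed type thus reached the top 10 through PTMAP5 alone.

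To ask how far the reads under these peaks could be placed in the genome, exact copies of the summit sequence were counted over both its strands. Spliced mRNA was not searched. A summit over a former exon junction can therefore count as 1 copy and still equal the parent mRNA. Summits within 25 nt of a parent junction made up 33.3% and 33.5% of those placed, so these counts can understate how alike copy and parent mRNA are. The 31-mer at the summit occurred once for 694 pseudogene peaks in replicate 1 (58.1%, interval 55.3 to 60.9) and 549 in replicate 2 (59.5%). For the other peaks these shares were 92.8% and 93.4%, and for lncRNA exon peaks 63.9% and 63.7%. A further 357 and 264 pseudogene peaks had 2 to 3 copies, 117 and 84 had 4 to 10, and 26 in each list had more than 10. With a longer stretch of 51 bases, 78.6% and 80.4% occurred once. The other peaks had 95.6% and 95.9%, and lncRNA exon peaks 72.3% and 72.4%. Repeated summits were thus not particular to pseudogene peaks. Repeats at the summit are a property that pseudogenes have by origin, so these shares were not tested.

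Median fold differed little between sites of 1 copy and of several. The median fold was 8.18 and 7.85 where the 31-mer occurred once, and 8.35 and 8.37 where it had 2 to 10 copies, with median pileups of 15 and 15 against 20 and 19 reads. Single-copy sites recurred in 57.2% and 76.1% of cases, those with 2 to 10 copies in 65.2% and 84.8%, and the 26 in each list with more than 10 copies in 46.2% and 69.2%. The higher fold against both comparison sets was called too when only peaks with a 31-mer of 1 copy were used. That filter does not remove summits that equal the spliced parent mRNA across a junction.

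Each peak sequence was then aligned to spliced parent mRNAs. Of the pseudogene peaks, 1124 in replicate 1 (94.1%) and 853 in replicate 2 (92.4%) aligned over at least 50 bases at 80% identity or more. Where the name gave a parent, 848 of 877 and 648 of 680 aligned to it, and that parent was the best-scoring mRNA for 827 and 628. The median identity was 95.6% in both replicates, and 24 and 22 peaks had no difference at all over the aligned bases. In the 51 nt around the summit, the median was 2 bases that differed from the parent or had no aligned parent base. At most 2 such bases were found in 621 of 1046 windows (59.4%) and 428 of 792 (54.0%). Windows that ran past the end of the alignment thus count as less alike than their aligned bases were.

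Median pileup was higher in classes of higher identity to the parent. From pseudogene sequences of 80 to 90% identity, through 90 to 95% and 95 to 98%, to those above 98%, the median pileup was 12.5, 14, 20 and 25 reads in replicate 1 and 11, 13, 18 and 22 reads in replicate 2. Median fold moved less, from 7.67 to 9.25 and from 7.33 to 9.85 between the lowest and highest class. The share that recurred went from 52.3% to 68.8% in replicate 1, and it was 69.9% and 91.8% at the ends in replicate 2. Over all aligned peaks, which share parents and libraries, Spearman's rho between identity and pileup was 0.358 in replicate 1 (1124 peaks) and 0.359 in replicate 2 (853 peaks), and between identity and fold 0.150 and 0.240. Copy number moved with identity as well, since the share with a 31-mer of 1 copy went from 90.7% to 26.6% and from 84.9% to 32.8%. The part of copy number in the pileup was not tested.

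**Figure D4:**
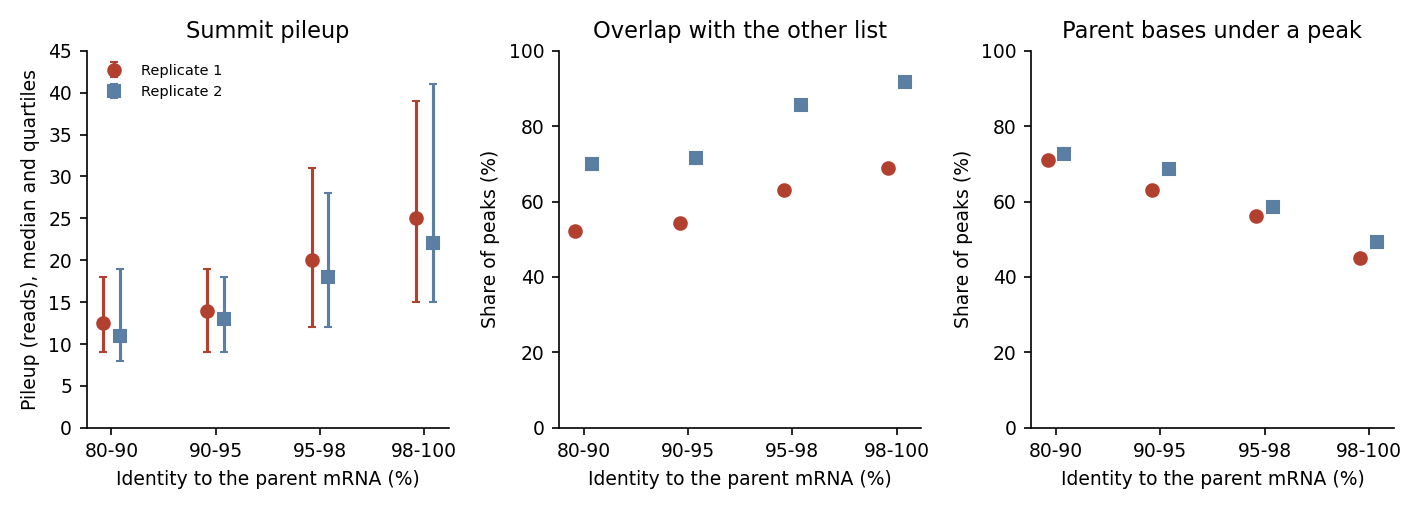
Median pileup in reads with quartiles, share of pseudogene peaks that overlapped the other list, and share whose aligned parent bases were themselves under a peak, by identity to the parent mRNA in percent. Median pileup went from 12.5 to 25 and from 11 to 22 reads, overlap from 52.3% to 68.8% and from 69.9% to 91.8%, and the share with a parent peak went down from 70.9% to 45.1% and from 72.6% to 49.2%.

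Parents of pseudogenes with a peak often had peaks of their own. In replicate 1, 337 of 427 named parents (78.9%, interval 74.8 to 82.5) had a peak on an exon of their own, and in replicate 2, 280 of 343 (81.6%). Over all 20020 protein-coding genes these shares were 37.3% and 39.1%, and for named parents of pseudogenes without a peak 57.1% and 57.9%. At the level of the aligned bases, 644 pseudogene peaks (57.3%) and 522 (61.2%) had a peak of the same list over the matching exonic bases of the parent. The remaining 480 and 331 had none over those bases, although the parent could have a peak elsewhere on its exons.

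Where both were under a peak, the parent mostly had more reads, and its median local background was higher. The pileup on the pseudogene was below that of the parent in 76.9% of cases in replicate 1 and 79.5% in replicate 2, with a median of 40 reads on the parents in both lists. Fold enrichment, in contrast, was higher on the pseudogene in 63.2% and 58.2% of cases. The median local background was 1.05 and 0.853 reads at these pseudogenes and 4.19 and 4.37 reads at the parents. Pseudogene peaks with no peak over the matching parent bases had median folds of 7.70 and 7.89 and pileups of 14.5 and 15 reads, against 9.03 and 8.50 and 19 and 17 reads for those with one. Their recurrence was 50.4% against 68.0% in replicate 1 and 82.2% against 79.9% in replicate 2, so the order differed between the lists.

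Placed on the parent mRNA, most summits fell in coding sequence. The share was 85.5% of 1046 summits in replicate 1 and 84.1% of 792 in replicate 2, with 7.17% and 10.2% in 5′ UTRs and 7.36% and 5.68% in 3′ UTRs. The annotated bases of these pseudogenes were themselves 95.7% coding, 0.562% 5′ UTR and 3.74% 3′ UTR sequence. Among summits inside the annotated copy, 97.5% and 97.6% were in coding sequence, close to that composition. Summits outside the annotated copy that still aligned to the parent, 139 and 119 in number, were 48.9% and 60.5% 5′ UTR and 43.9% and 31.9% 3′ UTR. Inside the annotated copy, 7 and 9 summits were in 5′ UTR and 16 and 7 in 3′ UTR sequence, against 68 and 72, and 61 and 38, outside it.

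Former exon junctions were common under these peaks. The aligned stretch crossed at least 1 junction of the parent mRNA in 996 of 1104 cases (90.2%) for replicate 1 and 732 of 833 (87.9%) for replicate 2, with a median of 2 junctions and at most 18. Summits were within 25 nt of a junction in 33.3% and 33.5% of cases. Among all aligned bases of the same pseudogenes it was 31.5%, so the share was close to the composition of the copies. Summits of overlapping pairs were a median of 24 bp apart, so the 25 nt limit is near their own spread.

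The letters of the m6A consensus were about as frequent in windows at summits as in windows over the pseudogenes. The 1173 and 907 summit windows outnumbered the 971 and 729 summits inside the annotated copy. Some were thus centred outside it, unlike the windows they are set beside. In windows of 101 nt around summits, read on the pseudogene strand, GGAC was present in 32.5% and 31.4%, compared with 31.6% and 33.3% of all windows of that length in the same pseudogenes. The longer TGGAC, which contains GGAC, was present in 14.2% and 14.0% against 13.9% and 14.9%. CATT was present in 30.2% and 26.6% against 32.6% and 30.8%, and AAAAA in 20.4% and 18.2% against 17.9% and 16.1%. These are counts of letters in a window and were not tested.

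The parents with the most pseudogenes under a peak were GAPDH, KRT8, EEF1A1, RPSA, FTH1, KRT18, RPL13A and RPL7. Together 109 of their 408 annotated pseudogenes had a peak in either list. At the other end, 316 of the 464 named parents had a single pseudogene with a peak, and 36 had at least 5.

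GAPDH, a glycolytic enzyme, had peaks on 16 and 15 of its 64 pseudogenes, with folds between 5.76 and 16.4 in replicate 1 and between 6.15 and 14.2 in replicate 2. Identity to the GAPDH mRNA was low for the class, at a median of 91.5%, and 16 of 19 and 13 of 16 peaks had a summit 31-mer of 1 copy. All 18 aligned peaks of replicate 1 and 13 of 15 in replicate 2 matched GAPDH bases under a peak. KRT8 and KRT18 encode the paired keratins of simple epithelia. KRT8 had peaks on 12 and 15 of 51 pseudogenes with median folds of 6.92 and 8.01, and KRT18 on 7 and 12 of 67 with 7.50 and 7.70, both with more in replicate 2.

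EEF1A1, which delivers aminoacyl-tRNA to the ribosome, had peaks on 14 and 11 of 45 pseudogenes, with median folds of 9.18 and 10.8 and median pileups of 27 and 33 reads. RPSA, a protein of the small ribosomal subunit, had peaks on 9 and 12 of 72, with median folds of 11.5 and 10.2. FTH1 had the largest share of copies with a peak among these 8 parents, with 12 and 11 of 23, and the highest median folds at 14.7 and 12.7. Its highest pileup was 87 and 81 reads, below the 143 and 194 reads on FTH1 itself. RPL13A, of the large ribosomal subunit, had 10 of 25 in both lists with median folds of 12.9 and 12.4, above the highest fold of 6.93 and 7.96 on the parent.

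RPL7, another protein of the large subunit, had peaks on 10 and 6 of 61 pseudogenes but no peak on its own exons in either list. Its pseudogene peaks had median folds of 8.10 and 8.50 and a median pileup of 11.5 reads in both. The pseudogene RPL7P9 stood apart with 121 and 65 reads and folds of 17.6 and 15.3. It was 99.7% identical to the RPL7 mRNA in both lists. The pseudogenes of one parent were thus far from equal in pileup, as for EEF1A1, where the values ran from 7 to 72 and from 6 to 59 reads.

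**Figure D5:**
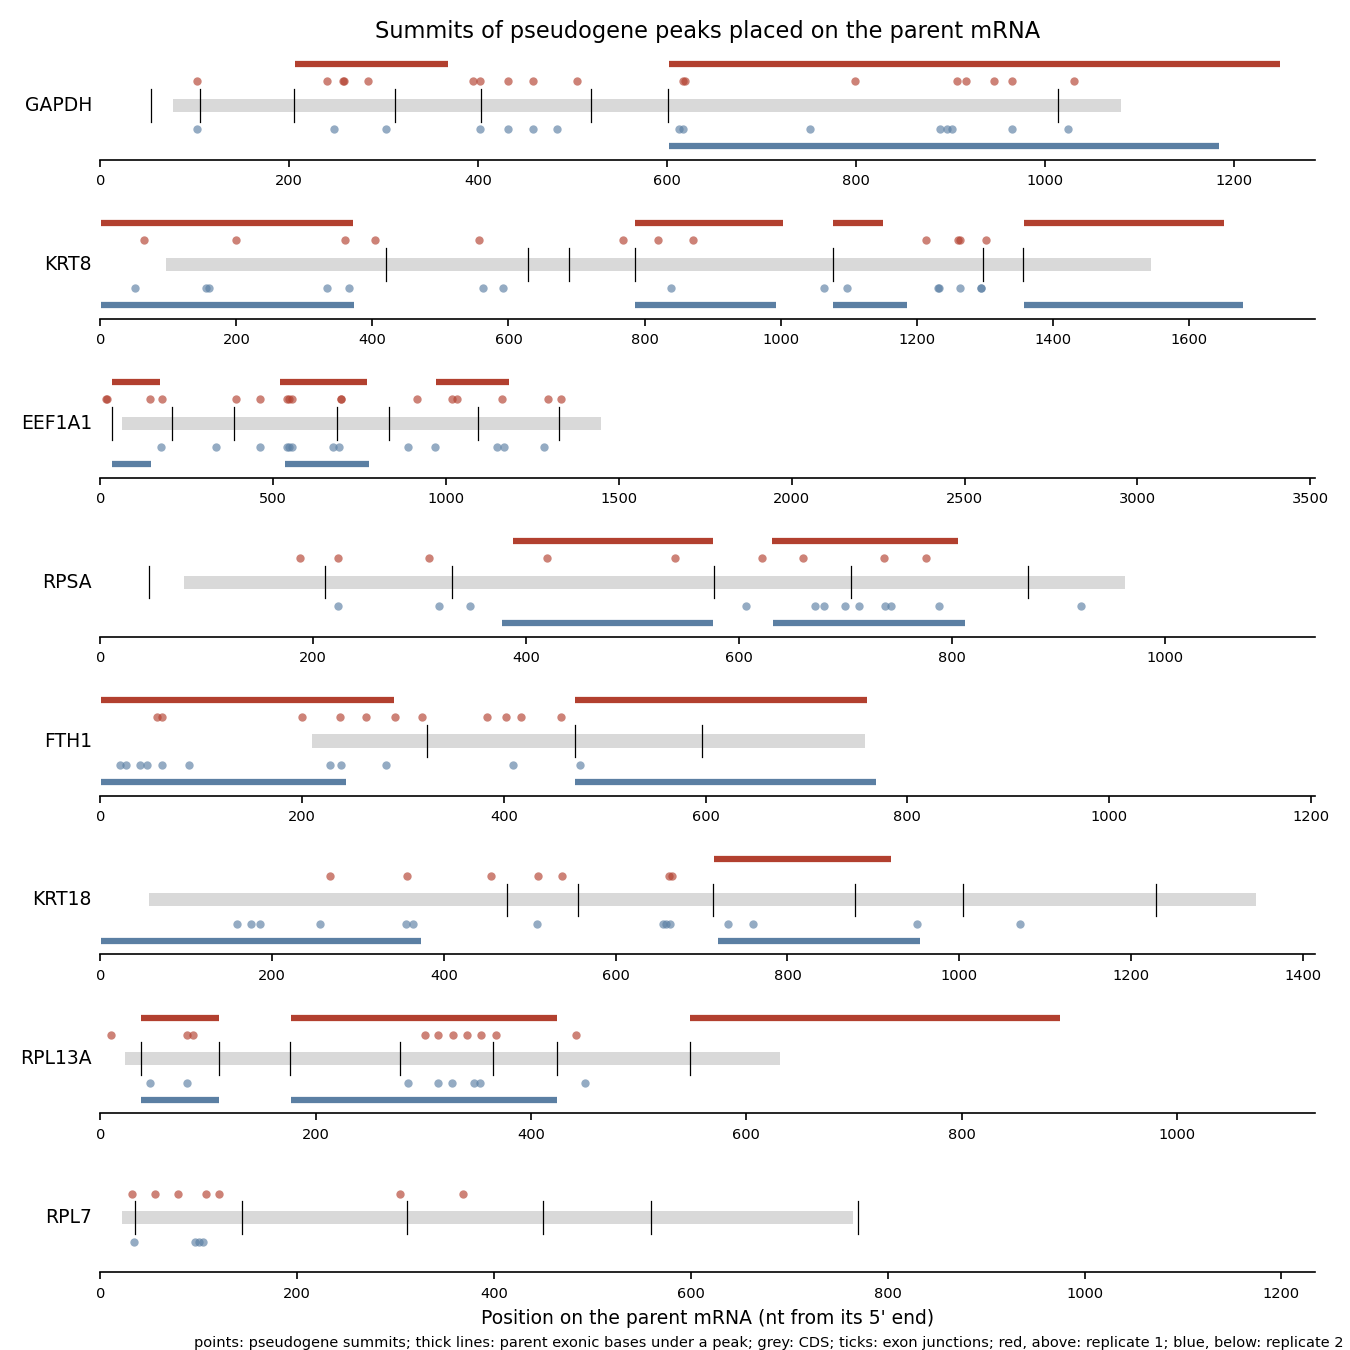
Position of pseudogene summits (points) on the spliced mRNA of 8 parents, in nt from the 5′ end, with replicate 1 in red above and replicate 2 in blue below; grey bars are coding sequence, vertical ticks exon junctions, and thick lines exonic bases of the parent under a peak of the same replicate. Summits of GAPDH copies were spread from position 102 to 1031 of 1285 nt, those of FTH1 copies lay in the first 476 of 1203 nt, and RPL7 had no peak of its own in either replicate.

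Parents were also grouped by what their proteins do. Cytosolic ribosomal proteins gave the most peaks, with 211 in replicate 1 and 188 in replicate 2 on 204 and 181 of 1599 annotated copies. This was 12.8% and 11.3%, little above the 10.2% and 7.94% over all processed pseudogenes. Their median folds of 10.2 and 9.69 were above those of the whole class (8.23 and 8.16), while median pileups of 17 and 16.5 reads were close to its 17 and 16. Besides RPL41P5, RPS27P8 and RPL13AP25, a copy of RPS15 named RPS15P4 had folds of 18.2 and 19.5.

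Several groups had larger shares of annotated copies with a peak than the ribosomal proteins in both lists. For translation factors the share was 32.2% and 25.3% of 146 copies, led by EEF1B2P3 (folds 16.9 and 15.0), from a nucleotide exchange factor of elongation, and EIF1P7 (19.0 and 14.9), from a factor of start codon selection. Glycolytic enzymes reached 26.2% and 25.2% of 103 copies, with GAPDHP63 at folds of 16.4 and 14.2 and PGK1P1, from phosphoglycerate kinase, at 13.1 and 13.9. The 14-3-3 and actin-regulator group reached 22.0% and 17.1% of 41 copies, with PFN1P1 at 16.3 and 13.5. Actins, tubulins and keratins reached 17.6% and 22.0% of 182 copies, and hnRNP and SR proteins 19.4% and 12.4% of 129. The shares depend on the parents chosen for a group and were not tested.

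Cytoskeletal copies were the only one of the 11 groups with more peaks in replicate 2. Actins, tubulins and keratins had 35 peaks in replicate 1 and 48 in replicate 2, of which 26 (74.3%) and 27 (56.3%) recurred. Over the whole class, 60.1% and 79.2% recurred. ACTBP11, a copy of beta-actin, had folds of 17.8 and 14.3. The reverse held for copies of chromatin and nucleolar proteins, with 41 and 23 peaks of which 18 (43.9%) and 20 (87.0%) recurred. PTMAP5 led this group, followed by NPM1P27, a copy of nucleophosmin, with folds of 15.8 and 15.8 and a summit 31-mer found 12 times in the genome. Copies of hnRNP and SR proteins, which act in splicing, had 28 and 17 peaks of which 13 (46.4%) and 14 (82.4%) recurred. In each of these groups the number that recurred was much alike in both lists, while the number of peaks was not. HNRNPA1P7 was the strongest hnRNP and SR copy at 18.0 and 13.0. Its aligned bases were 100% identical to the HNRNPA1 mRNA, yet its replicate 1 summit 31-mer occurred only 1 time in the genome. Spliced mRNA was not part of that count.

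Chaperones had 19 and 9 peaks, of which 8 (42.1%) and 8 (88.9%) recurred. HSPB1P1, a copy of a small heat shock protein gene, had folds of 18.4 and 19.9. Proteasome and ubiquitin genes had 15 and 9 peaks, led by UBBP1, from a polyubiquitin gene, at 18.0 and 19.5. Respiratory chain and ATP synthase genes were below the average of the class in share, at 6.92% and 5.38% of 260 copies, although COX6A1P2 was among the strongest sites. RANP6, from the GTPase of nuclear transport, was the strongest of 3 peaks in each list on copies of cell cycle and replication genes, with folds of 18.3 and 15.1. The 15 and 14 peaks on nuclear copies of mitochondrial genes, a list added after the values were seen, had median folds of 7.45 and 6.99 and covered 6.11% of 229 copies in both lists. Peaks in no group, 728 and 535 in number, had median folds of 7.76 and 7.80, and 55.5% and 76.6% of them recurred.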

How the data were processed

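IGF2BP3 LACE-seq peak lists of 2 replicates of OE-19 cells were used, and no sample was left out. In the study's methods, reads free of pre-rRNA were aligned to hg38 with Bowtie, with up to 2 mismatches and up to 10 places per read, and peaks were called with Piranha. The submitters' processing notes instead name fastp, HISAT2 and MACS2, and the files have the narrowPeak layout of the latter, so the aligner is unsettled. The authors called peaks per replicate, without strand.

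The authors deposited a fold enrichment (a ratio over the local background), p- and q-values on the −log10 scale, and a score that repeats the q-value and was not used. Other deposited columns hold start, end and summit in bp. Library depth is unknown. Pileup and background were recovered as the whole number of reads and the Poisson mean that give the deposited fold and p-value.

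Peaks were placed on GENCODE 44, with coordinates 1-based. Summit 31-mers were counted in the genome with numba 0.67.0. Peak sequences were aligned with blastn 2.17.0 (e-value at most 1e-05, at least 50 bp and 80% identity) to the canonical mRNA of the parent, or of the best match where the name gave none. Shares were compared in each list by Fisher's exact test, two-sided, with scipy 1.17.1 and Benjamini-Hochberg adjustment over 12 tests. A difference was called when the adjusted p was below 0.05 in both lists in the same direction. The comparison was tested on simulated independent counts, which do not carry the shared parents of these peaks.

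The pseudogenes and lists were chosen with earlier results of these data known. Named sites are the 10 recurrent sites with the highest lower within-list percentile of fold, 1 per parent, the first 5 of that order with a summit 31-mer of 1 copy in both lists, the first 5 on transcribed pseudogenes, the 8 parents with the most member pseudogenes, and up to 4 sites per parent group, of which some are printed. RPL7P9 was chosen after its values were seen. Alternatives changed the overlap rule, the pseudogene types, the peaks used, the thresholds, the comparison set and the replicates.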

Additional observations from a re-analysis of the deposited data

How the results depend on the processing

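Of 59 tested alternatives that left out no replicate, 54 kept call and direction, and none reversed. Values are means over the replicates in percentage points of difference, or in percent for shares. The lower pileup against other peaks (-11.4) was lost when only other peaks off protein-coding exons were compared (-0.182, Fisher's exact test, larger adjusted p = 0.727). Recurrence, not called against other peaks at 9.43 points, was called against other peaks off protein-coding exons (21.5), with summits within 50 bp (9.08) and at a pileup of at least the list median (15.8), where it was also called against lncRNA exon peaks (18.0). Leaving out each replicate gave 0.0496 to 18.8 and 1.82 to 25.3 points for these 2 comparisons. Only replicate 2, the list with fewer pseudogene peaks, passed. The higher fold was called under every alternative run, at 12.5 to 22.5 points against other peaks and 13.5 to 26.5 against lncRNA exon peaks. Using 1 peak per parent, an alternative chosen after the data were seen, changed no call.

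The share of summits with a 31-mer of 1 copy (58.8%) became 79.5% for 51-mers and 64.2% at the middle of the peak. Parents with a peak of their own (80.3%) became 56.9% when the peak had to lie over the aligned bases. Summits in coding sequence (84.8%) became 86.5% at the middle of the peak and 83.1% at 95% identity, and summits near junctions (33.4%) became 30.8% and 33.9%. Requiring the summit, or at least 50% of the peak, inside the pseudogene left 971 or 968 peaks in replicate 1 and 729 or 712 in replicate 2. The cause of these changes was not tested beyond what each setting itself leaves out.

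No paired analysis was possible because the data hold 1 group. Library depth is unknown, so what depth limits could not be measured beyond the median pileups of 17 and 16 reads on pseudogenes. Without a control library or strand, pseudogene, parent and host intron cannot be told apart as the source of reads.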
